A study of Homo sapiens with 8 samples.

Results

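Corin weakened 7459 regions of open chromatin that stayed detectable in all 4 treatments of U-937 cells, out of 66303 such shared regions and 161291 regions in all. The assay was ATAC-seq. A transposase inserts sequencing adapters into accessible DNA, so that a high local signal (a peak) marks DNA free of nucleosomes. U-937 is a human monocytic leukaemia line, labelled as AML cells. The 4 groups had 2 samples each, 8 in all, and were treated for 24 h with DMSO (the vehicle, without either compound), with 0.1 µM all-trans retinoic acid (ATRA), with 0.1 µM Corin, or with ATRA and Corin together, 0.1 µM of each, called the combination below. All groups were this single line, with no genetic change named in the labels, so what other AML cells would show was not measured. The authors deposited 1 peak list per group in which the samples were combined. Replicate spread is thus missing from every value reported here, and differences between treatments are descriptions without a test.

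The regions were selected on measured values, as follows. Overlapping peaks of the 4 lists were merged, and regions with a peak in every list were kept. The highest fold over local background of a region in a list, a score given by the authors, was turned into a percentile among the kept regions of that list. The 7459 regions, 11.2% of those kept, were at least 10 percentile points lower with Corin than with DMSO and also at least 10 points lower with the combination than with ATRA. They are called the weakened regions. For comparison, 6920 kept regions (10.4%) were at least 10 points higher in both contrasts and are called strengthened. Another 24172 stayed within 10 points in both and are called steady. These names refer to ranks within a list, not to the fold itself. With the combination the fold was lower than with ATRA in 1434 strengthened regions (20.7%) and in 93.7% of steady ones. Intervals are 95% Wilson intervals and cover counting error over regions only, since neighbouring regions and regions of the same library are not independent replicates.

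Corin is a dual inhibitor aimed at the CoREST co-repressor complex, in which the demethylase LSD1 (KDM1A) removes methyl groups from histone H3 lysine 4 and the deacetylases HDAC1 and HDAC2 remove acetyl groups. In blood cells this complex is brought to DNA by the repressors GFI1 and GFI1B. PU.1 (SPI1) is an ETS family pioneer factor that binds purine-rich sequence and opens enhancers of monocytes and macrophages, often beside RUNX1, C/EBP and IRF factors. AP-1 is a dimer of JUN and FOS proteins that responds to growth and stress signals and also binds at enhancers. ATRA is the ligand of the retinoic acid receptors and drives leukaemic cells towards maturity.

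The sequences below show some of the DNA letters that were compared between the weakened and the other regions. Each is 100 bp of hg38, plus strand, centred on the point of highest signal (the summit) in the DMSO list, and capitals mark matches of PU.1 (GAGGAAG, or CTTCCTC on the other strand), of RUNX (TGTGGTT), of IRF (GAAANNGAA), of C/EBP (TTGCNNAA) and of AP-1 (TGANTCA). Regions are named after the nearest start of a protein-coding transcript, which does not show that they act on that gene. The first 5 belong to weakened regions away from coding starts with the deepest loss of rank. They are the region with the deepest loss and the 4 of the first 10 that held a match in these 100 bp. None of the 10 held an AP-1 match. In wider windows of 200 bp, 15.8% of all kept regions outside promoters held one, so its absence from the 10 does not stand out.
DTD1 (chr20:18650380-18650479): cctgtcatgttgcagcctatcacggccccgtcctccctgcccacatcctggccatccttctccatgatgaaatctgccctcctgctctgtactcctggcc
SYNPO2 (chr4:118935936-118936035): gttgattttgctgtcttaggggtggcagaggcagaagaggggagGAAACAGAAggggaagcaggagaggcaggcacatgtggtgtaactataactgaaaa
ATXN3L (chrX:13377044-13377143): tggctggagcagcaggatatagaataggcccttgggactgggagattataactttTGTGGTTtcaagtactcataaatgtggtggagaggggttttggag
ANK2 (chr4:113411783-113411882): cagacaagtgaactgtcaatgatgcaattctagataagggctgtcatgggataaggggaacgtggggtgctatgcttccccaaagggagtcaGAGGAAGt
ADAMTS9 (chr3:64931464-64931563): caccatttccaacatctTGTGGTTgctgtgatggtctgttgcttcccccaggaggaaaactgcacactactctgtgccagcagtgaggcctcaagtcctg
The next 5 are weakened regions with a PU.1 match in the same window, chosen after their values were seen to show the PU.1 letters in context.
MTHFD1L (chr6:151041030-151041129): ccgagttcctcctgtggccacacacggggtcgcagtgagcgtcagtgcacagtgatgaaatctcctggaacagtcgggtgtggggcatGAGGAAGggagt
SLC16A10 (chr6:111184976-111185075): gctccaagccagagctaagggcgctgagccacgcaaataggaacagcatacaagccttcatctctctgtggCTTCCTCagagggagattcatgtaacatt
SLC24A3 (chr20:19375516-19375615): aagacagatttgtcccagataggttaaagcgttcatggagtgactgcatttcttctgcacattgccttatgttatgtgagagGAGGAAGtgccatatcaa
PNPLA1 (chr6:36241859-36241958): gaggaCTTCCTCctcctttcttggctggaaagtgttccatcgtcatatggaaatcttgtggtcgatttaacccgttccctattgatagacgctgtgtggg
HUNK (chr21:31974614-31974713): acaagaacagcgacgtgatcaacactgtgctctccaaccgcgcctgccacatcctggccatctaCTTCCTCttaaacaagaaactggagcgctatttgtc
The last pair, also chosen after their values were seen, are strengthened regions with AP-1 matches, for contrast.
SLC25A4 (chr4:185112239-185112338): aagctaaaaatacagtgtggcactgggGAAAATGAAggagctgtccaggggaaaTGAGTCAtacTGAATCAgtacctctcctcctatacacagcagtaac
CD163 (chr12:7498890-7498989): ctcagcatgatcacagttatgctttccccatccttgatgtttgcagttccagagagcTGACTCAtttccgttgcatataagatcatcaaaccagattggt

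The scores of the weakened regions in the 4 lists show the size of the loss, which the selection itself fixed in direction. Their median fold over local background was 9.26 with DMSO and 15.1 with ATRA. It was 5.02 with Corin and 6.49 with the combination. Over all kept regions the medians were 8.74, 11.8, 7.93 and 8.81 in the same order. The weakened regions thus started slightly above the middle of the DMSO list, at a median percentile of 53.6, and ended at 27.7 with Corin. They stood at 67.8 with ATRA and at 34.3 with the combination.

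**Figure D1:**
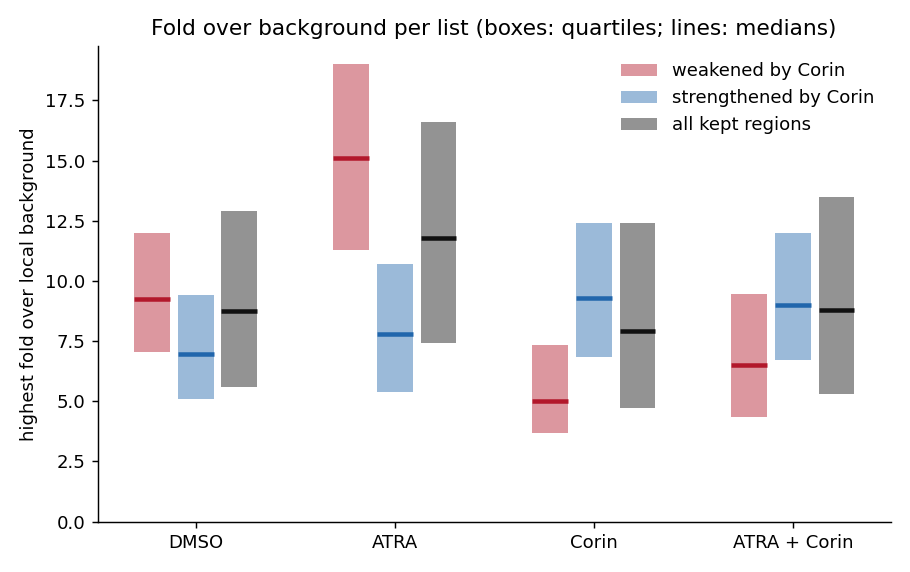
Highest fold over local background per region (y axis, linear) in each of the 4 deposited lists (x axis), for the 7459 regions weakened by Corin, the 6920 strengthened ones and all 66303 kept regions. Boxes span the quartiles and lines are medians over regions; the weakened regions have medians of 9.26 and 15.1 without Corin and of 5.02 and 6.49 with it.

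Per region, the fold with Corin was a median of 0.582 times that with DMSO (log2 ratio −0.78), and the fold with the combination was 0.467 times that with ATRA (−1.10). Over all kept regions these ratios were 0.942 and 0.820. In 1581 weakened regions (21.2%) the fold was at most 0.5 times its former value in both contrasts, and in 7 it was at most 0.25 times. The regions were weakened and not closed, since by the rule each still carried a called peak in all 4 lists.

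The fold is a ratio, so its numerator and denominator were looked at separately. The read pileup at the summit and the local background under it were solved from the authors' fold and −log10 p. The median pileup of the weakened regions was 161 reads with DMSO and 203 with ATRA, against 83 with Corin and 111 with the combination. Their median background was 15.1 and 11.6, against 13.1 and 13.9. Per region the pileup with Corin was 0.539 times that with DMSO and the background 0.979 times. The lowest value, lower quartile and median of the background in weakened regions were all 13.1 with Corin. With the combination all of them were 13.9. With so many regions at a shared lowest value, these ratios cannot decide how much of the loss lay in the pileup. For the combination over ATRA the pileup was 0.569 times and the background 1.35 times, and over all kept regions these were 1.02 and 1.31. In that contrast the solved background was higher at kept regions in general, while the lower pileup was seen at the weakened ones. The stretch covered by peaks comes from the same signal that the rule used. Its medians in weakened regions were 683 bp for DMSO, 747 bp for ATRA, 498 bp for Corin and 601 bp for the combination. Over all kept regions they were 749, 778, 679 and 758 bp in the same order. Read depth is unknown for all 4 lists, and pileup and background were not scaled for it. The lower quartile of the background in weakened regions was 12.8 with DMSO, 9.12 with ATRA, 13.1 with Corin and 13.9 with the combination. Pileups and backgrounds of different lists may thus not be on the same scale, and a part of depth in their ratios was not tested.

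The contrasts of the rule had no list in common, and the counts that passed each are given as a description of the selection. Of all kept regions, 12307 (18.6%) passed the limit for Corin against DMSO and 15054 (22.7%) passed it for the combination against ATRA. Of the former, 60.6% (59.7 to 61.5) also passed the latter. The opposite move was made by 545 of them, 4.43%, against 27.4% of all kept regions. The rank before Corin sets how far a region can fall or rise, so these shares do not measure agreement of the contrasts. A kept region in the lowest 10% of the DMSO list could not pass, and 0 of 6630 did. Membership peaked at 17.9% of the regions between DMSO percentiles 40 and 50 and was 4.89% in the highest 10%. At the threshold, the 3 members nearest the limit (near ANKRD42, QRFPR and MAP2K5) and the 3 kept regions just outside it (near XYLT1, SOX1 and PKIG) all stood at −10 points, after rounding, in 1 of the contrasts.

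**Figure D2:**
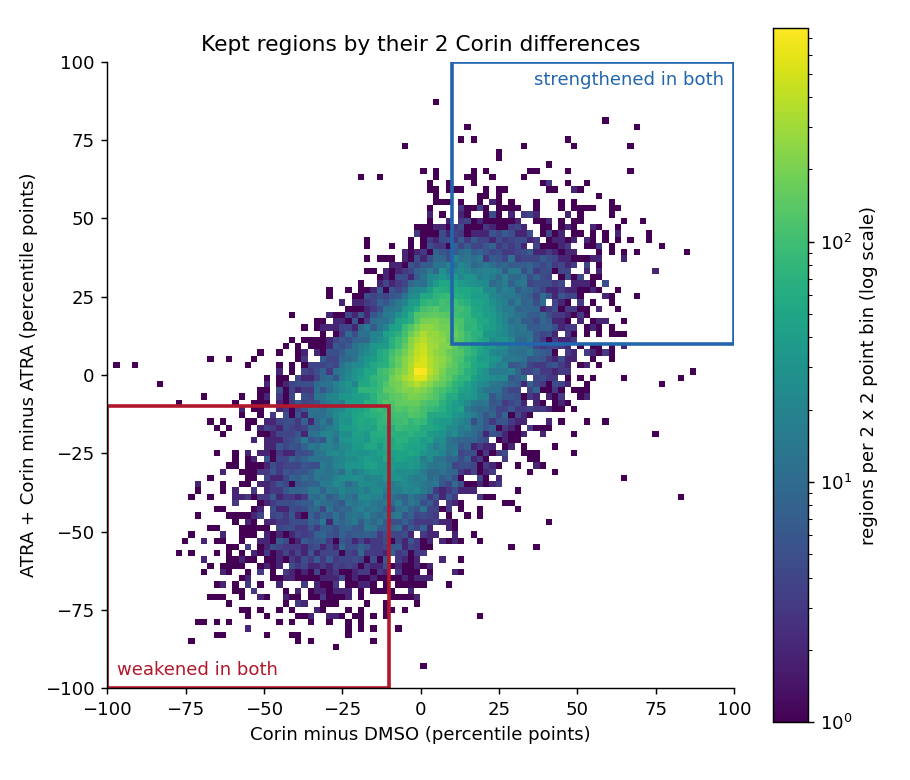
Each kept region by its change in percentile with Corin over DMSO (x axis) and with the combination over ATRA (y axis), both in percentile points; colour gives the number of regions per bin on a log scale. The red frame holds the 7459 weakened regions and the blue frame the 6920 strengthened ones, and the 4.43% of Corin-lowered regions that rose on top of ATRA lie in the upper left.

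Weakened regions lay away from promoters. A promoter region was one within 1 kb of any annotated transcription start (GENCODE release 44). Of the weakened regions 1011 (13.6%, 12.8 to 14.3) were at promoters, against 30.2% of all kept regions, 34.6% of steady ones and 31.9% of strengthened ones. Introns held 47.7% of them (37.0% of all kept regions), intergenic sequence 29.4% (25.3%) and exons 9.36% (7.57%). Their median distance to a start was 9333 bp against 4997 bp, and 10.3% lay over 50000 bp from one against 5.62%. Both the strengthened and the steady regions were near the background in these shares, so distance from promoters was a property of the weakened side.

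The promoters that weakened were mostly not the main promoters of coding genes. Only 172 of the 1011 (17.0%, 14.8 to 19.5) lay within 1 kb of the outer 5′ end of a protein-coding gene, against 51.7% of all kept promoter regions. A further 188 lay at other starts of coding transcripts, and 651 (64.4%, 61.4 to 67.3) lay only at starts of transcripts not annotated as protein-coding, against 31.5%. Put the other way, 1.66% of kept regions at the 5′ end of a coding gene were weakened, 5.59% of those at an inner or alternative coding start, and 10.3% of those at other starts. They were also poor in CpG, with a median of 3 CpG per 200 bp at the summit against 13 for all kept promoter regions, and a median GC content of 52.0% against 62.5%.

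Base composition shifted with this. The median GC content at the summit was 47.5% in weakened regions, 52.0% in steady ones, 50.5% in strengthened ones and 50% in all kept. Outside promoters the gap nearly vanished, at 47.0% against 47.5%. In 5 classes of GC content, from low to high, 14.0%, 14.6%, 13.8%, 10.6% and 2.99% of kept regions were weakened. Outside promoters the shares in those classes were 14.3%, 15.2%, 14.5%, 12.8% and 8.28%. By chromosome they ran from 5.83% on chromosome 19, rich in genes and GC, to 15.4% on chromosome 21, leaving out chromosome Y with 2 kept regions.

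The PU.1 motif was more frequent in the weakened regions than in the other sets, and the AP-1 motif was scarce in them. In 200-bp windows at the DMSO summit, searched on both strands outside promoters, GAGGAAG was found in 25.2% of the weakened regions (24.2 to 26.3), in 19.4% of steady, 15.5% of strengthened and 19.8% of all kept regions. The AP-1 letters TGANTCA were found in 5.80% of the weakened regions (5.26 to 6.4), in 12.8% of steady, 36.5% of strengthened and 15.8% of all kept regions. PU.1 thus rose in share from strengthened to steady to weakened regions, and AP-1 ran the other way. Most weakened regions outside promoters, 4541 of 6448, held neither PU.1 nor AP-1 letters. Matches of different motifs may overlap, and a match is a description of the letters, not a bound site. A control for base composition was the same letters read backwards without complementing. GAAGGAG was found in 7.15% of weakened (6.55 to 7.80) and 6.52% of all kept regions, and ACTNAGT in 4.28% (3.81 to 4.80) and 5.12%. Both controls lay outside their intervals, in the directions of PU.1 and AP-1, with gaps that were smaller in percentage points.

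**Figure D3:**
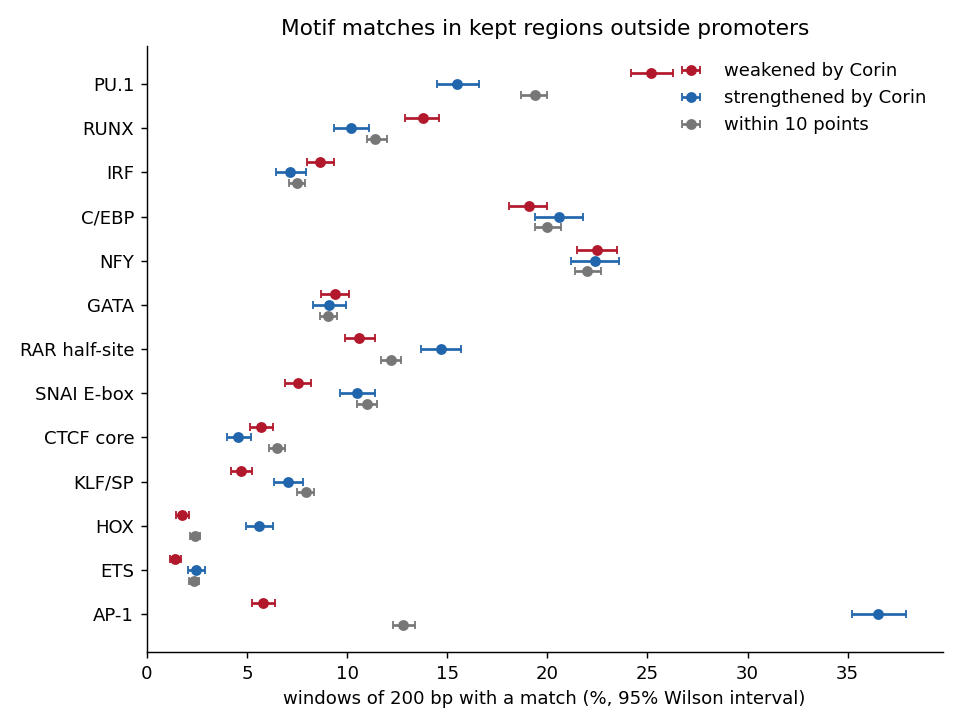
Share of 200-bp windows with a match (x axis, per cent) for 13 of the 21 motifs searched (y axis), in kept regions outside promoters that were weakened (6448 regions), strengthened (4710) or within 10 points (15805). Bars are 95% Wilson intervals; the weakened regions stand highest for PU.1, at 25.2%, and lowest for AP-1, at 5.80%.

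Among the partners of PU.1, the RUNX motif was also more frequent in weakened regions, at 13.8% (12.9 to 14.6) against 11.6% of all kept regions. The IRF motif was at 8.65% (7.99 to 9.36) against 7.90%, and within each of 5 classes of GC content this gap was smaller than the interval, as in the lowest class, at 13.1% (11.6 to 14.8) against 12.0%. The C/EBP motif was at 19.1% (18.1 to 20) against 20.2%. Of the repressors that recruit CoREST, the motif of GFI1 was rarer in weakened regions, at 0.295% (0.189 to 0.460) against 0.616%, and was at 1.42% in strengthened ones. The SNAI E-box, CAGGTG, was at 7.54% against 10.0%. The half-site of REST, a repressor of neuronal genes, was at 0.326% (0.213 to 0.497) against 0.227%, on 21 regions. Motifs of promoter factors were low, with KLF/SP at 4.71% against 6.78% and the CCGGAAG form bound by other ETS factors at 1.4% against 1.96%. The half-site of the retinoic acid receptors, AGGTCA, was at 10.6% against 12.4%. NFY (22.5% against 22.6%), GATA (9.40% against 9.12%) and the CTCF core (5.71% against 5.98%) differed by less than their intervals.

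The same letters came out when no motif was given. All 8192 words of 7 bases, each pooled with its reverse complement, were ranked by their share in weakened minus steady regions outside promoters. The first was ACTTCCT, in 26.7% against 18.5%. The second was CTTCCTC, the PU.1 letters, in 25.2% against 19.4%. The last was TGACTCA, an AP-1 site, in 3.94% against 10.1%. Words that hold the GGAA core of ETS proteins made up most of the first 10, and words that overlap an AP-1 site most of the last 10.

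PU.1 matches were gathered at the summit of the weakened regions and AP-1 matches were not. Within 50 bp of the DMSO summit there were 209 PU.1 matches per 1000 weakened regions per 100 bp, against 40.2 at 100 to 200 bp, a ratio of 5.20. The ratio was 3.14 in steady and 2.40 in strengthened regions, where the flanks held 45.3 and 44.2. For AP-1 the weakened regions had 30.2 at the centre and 29.2 in the flanks, a ratio of 1.04, against 2.55 in steady and 7.78 in strengthened regions. AP-1 letters in weakened regions were thus as frequent at the summit as beside it. RUNX matches were gathered too, with ratios of 4.45 in weakened, 3.47 in steady and 2.92 in strengthened regions.

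**Figure D4:**
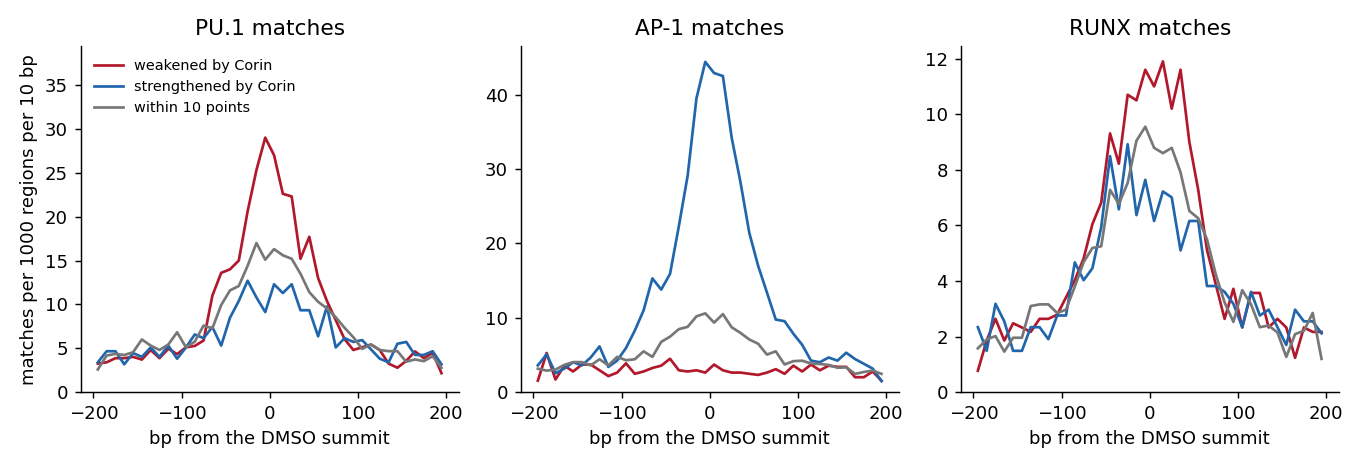
Matches per 1000 regions per 10 bp (y axis) by distance from the DMSO summit (x axis, bp) for PU.1, AP-1 and RUNX in weakened, strengthened and steady regions outside promoters. The PU.1 peak is highest in weakened regions, while their AP-1 line stays flat, with a ratio of centre to flank of 1.04.

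The summit itself did not move. The Corin summit lay within 50 bp of the DMSO summit in 92.9% of weakened regions (91.1% of all kept regions) and the combination summit in 93.3% (90.7%). The ATRA summit did so in 96.0%, against 90.6%.

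Holding 1 motif fixed showed how they combined. Outside promoters 13.9% of kept regions were weakened. Of those with PU.1 and without AP-1, 19.5% were (1533 of 7862, 18.6 to 20.4), and of those with AP-1 and without PU.1, 4.70% (281 of 5980, 4.19 to 5.27). With both it was 7.09% (5.82 to 8.61), and with neither 14.6%. A region with AP-1 letters was thus seldom weakened whether or not it also held PU.1 letters. Strengthened regions made up 24.4% of those with AP-1 alone and 5.97% of those with PU.1 alone.

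The number of matches counted as well. With 0, 1 and at least 2 PU.1 matches in the window, 13.0%, 17.2% and 21.6% of regions were weakened. With 0, 1 and at least 2 AP-1 matches, 15.6%, 5.64% and 0.147% were, the last being 1 region of 680, and 38.5% of those 680 were strengthened. PU.1 with RUNX and without AP-1 gave 22.2% (19.4 to 25.2), PU.1 with IRF 22.9% (19.7 to 26.3) and PU.1 with C/EBP 18.4% (16.4 to 20.5).

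The shares of PU.1 and AP-1 followed the size of the change over its range. When kept regions outside promoters were ordered by the mean of their 2 differences, PU.1 letters were in 29.4% of those in the lowest class, under −40 points, and in 11.4% of those in the highest, over 40 points. AP-1 letters rose from 5.57% to 65.7% over the same classes. RUNX letters did not follow the change in this way, at 17.6% in the lowest class, 9.93% between 20 and 30 points, and 16% in the highest. Among the weakened regions alone, ordered by the weaker of their 2 differences, PU.1 was in 30.3% of the deepest class (at least 40 points lost in both contrasts) and 22.3% of the shallowest (10 to 15 points). RUNX fell from 20.6% to 11.8% between these classes, and AP-1 rose from 3.37% to 6.75%. The share at promoters was 9.80% in the deepest class and 15.3% in the shallowest.

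**Figure D5:**
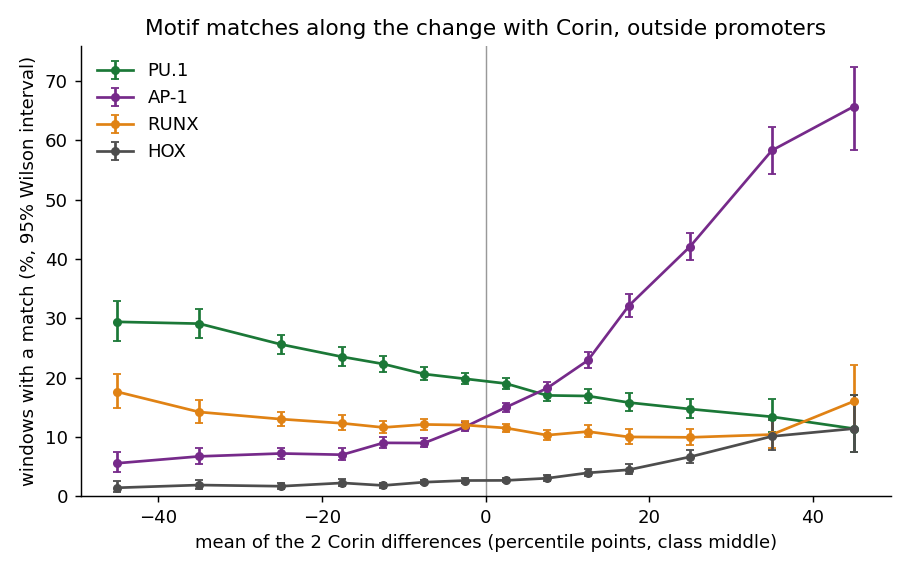
Share of windows with a match (y axis, per cent, 95% Wilson interval) against the mean of the 2 Corin differences in percentile points (x axis, drawn at the middle of each class, the end classes being open) for kept regions outside promoters. PU.1 falls from 29.4% to 11.4% from left to right, while AP-1 climbs from 5.57% to 65.7%.

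These differences held within classes of base composition and distance for AP-1 and mostly for PU.1. In the 4 lower GC classes PU.1 letters were in 22.5%, 27.9%, 26.9% and 24.7% of weakened regions, against 17.6%, 20.8%, 21.1% and 21.5% of all kept regions there. In the highest GC class the share was 15.8% (11.6 to 21.1) against 14.6%, a gap within the interval. AP-1 letters were rarer in weakened regions in all 5 classes, for example 6.50% against 17.1% in the lowest and 4.05% against 7.95% in the highest. RUNX letters were more frequent in the lowest class, at 17.7% (15.9 to 19.6) against 14.2%, and in the third, at 13.8% (12.2 to 15.6) against 11.5%, and the other classes differed by less than their intervals. At promoters PU.1 letters were in 22.8% of weakened regions against 14.6%, and RUNX in 11.1% against 5.46%, while KLF/SP was in 13.7% against 46.6%. PU.1 and RUNX letters were thus more frequent in weakened regions at promoters too. There this was not particular to them. C/EBP letters were in 14.2% against 8.90%, IRF in 7.62% against 4.71% and GATA in 7.32% against 3.99%. AP-1 (4.95% against 8.04%) and NFY (21.4% against 26.1%) were rarer. Promoters were not split by GC content, which was lower in the weakened ones.

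The values with ATRA are given as a description only, since the rule asks for a high value with ATRA relative to the combination. The fold of the weakened regions with ATRA was a median of 1.54 times that with DMSO, against 1.24 for all kept regions, and with the combination it was 1.21 times that with Corin, against 1.08. With ATRA 2370 of them (31.8%) gained at least 10 points in both backgrounds, with and without Corin, against 12.4% of all kept regions, and 694 (9.30%) lost 10 points in both against 10.7%. In strengthened regions, chosen by the opposite rule, these shares were 5.90% and 25.6%.

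The weakened regions with the deepest loss away from coding starts had folds that fell to a low level from a high one. The order by loss of rank fixed this shape in advance, so the values are a description. The region in an intron of DTD1, a tRNA-editing enzyme (chr20:18650054-18650790, 62000 bp from a coding start), had a fold of 17.4 with DMSO, 21.3 with ATRA, 4.10 with Corin and 3.01 with the combination. Its pileups were 267, 220, 57 and 44 reads. It thus lost 73.1 and 85.3 percentile points, without any of the 5 marked motifs in its printed sequence. The region in an intron of SYNPO2, an actin-binding protein (chr4:118935696-118936375), had folds of 18.9, 20.3, 4.60 and 3.48 in the same order. That near ANK2, an ankyrin (chr4:113411370-113412198, intergenic), had 12.8, 29.1, 3.04 and 5.69. It was among the strongest regions of the ATRA list, at percentile 99.6, and at 28.0 in the combination.

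Others of the 15 regions named by this order had the same shape, as the order itself requires. Near MTHFD1L, a mitochondrial folate enzyme (chr6:151040881-151041494), the folds were 15.6, 28.9, 4.60 and 6.23 in the order DMSO, ATRA, Corin and combination. Near SLC16A10, an aromatic amino acid transporter (chr6:111184833-111185448), they were 15.2, 20.4, 4.53 and 4.35. Both hold PU.1 letters in the printed sequences. The other regions lay near ATXN3L, ADAMTS9, MREG, PPP2R2B, BAZ2B, FGF7 (within FAM227B), PJA1, BARHL1 (within CFAP77), RTL1 and IGFBPL1. The region named after ATXN3L overlaps a start of a non-coding transcript 56772 bp from the coding one.

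Of the 15 weakened regions with the deepest loss within 1 kb of a coding transcript start, 2 lay within 1 kb of the outer 5′ end of their gene and 13 at a start further in. F13A1 encodes the A subunit of coagulation factor XIII, made by monocytes and macrophages. The region over its main start (chr6:6320336-6321181) had folds of 11.9 with DMSO, 16.5 with ATRA, 3.75 with Corin and 4.55 with the combination, and it holds PU.1 letters. The region before PNPLA1, a lipid acyltransferase (chr6:36241374-36242306, 897 bp from the start), had 8.44, 18.1, 3.41 and 6.97. Both fell to below 0.5 times the matching level without Corin.

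KDM1A, the gene of the demethylase that Corin inhibits, was among the 13. Its region (chr1:23078880-23079687) lies in the gene body, 59437 bp from the 5′ end, over the start of a shorter coding transcript. The folds were 9.11 with DMSO, 17.6 with ATRA, 3.62 with Corin and 3.62 with the combination, and the pileups 161, 399, 51 and 53 reads. The gain with ATRA seen without Corin was not seen with it. The region over the main start of KDM1A (chr1:23018928-23020409) was steady, with folds of 20.2, 19.8, 21.3 and 18.7. At CD59, an inhibitor of complement (chr11:33723434-33725123), the inner region had folds of 8.30, 12.3, 2.48 and 2.34. KEAP1, the adaptor that marks NRF2 for destruction (chr19:10491888-10492865), had 8.44, 11.9, 3.26 and 3.68. The remaining inner starts were those of PHF20, STIM2, TRAP1, SHF, PPP4R3A, SLC37A3, CHRM3, STARD3, ARHGEF7 and HUNK. Of these 13 genes, 8 had a kept region at their outer 5′ end, looked up after the inner ones were seen, and 0 of the 8 were weakened, 3 being steady, 1 strengthened and 4 in none of these sets. The genes were chosen for the loss at the inner start, and with 1.66% of all kept regions at coding 5′ ends weakened, 0 of 8 does not stand out from this background. The TRAP1 region is the exception among these 15 in holding AP-1 letters.

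The strongest weakened regions were still well above background with Corin. The 10 weakened regions with the highest DMSO percentile, from 98.9 to 99.8, kept folds of at least 11.5 with Corin. The first, in an intron of ODAD2, a gene of motile cilia (chr10:27844016-27844984), had 25.5 with DMSO, 26.9 with ATRA, 12.0 with Corin and 13.7 with the combination. The others lay near NDUFS4, OPRK1, FAM181B, ADGRA3, EMCN, CHD9NB, BTNL3, ZNF644 and ST8SIA1. Most are far from the named start, such as the region 863475 bp from FAM181B. None of the 10 held PU.1 or AP-1 letters in the 200-bp window.

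The genes with the most weakened regions nearby were long, and they were picked by that count, so high counts are a description. Within 10 kb of gene bodies, 4225 of 16799 coding genes with a kept region had at least 1 weakened region (25.2%), and 43 had at least 5. LRMDA, a melanocyte differentiation gene, had 11 of 45 kept regions weakened. AFF3, a nuclear protein of the AF4 family, had 9 of 20. DAB1, a reelin adaptor, had 8 of 15, and SRGAP3, a regulator of Rac, had 8 of 14. SLC24A3, a sodium and calcium exchanger, had 8 of 19, GRIP1 had 7 of 16 and ASIC2 had 7 of 23. RUNX1, the myeloid factor, had 8 of 54, or 14.8%. Of all kept regions within 10 kb of a coding gene, promoters included, 10.2% were weakened. Another 2 gene models, without a symbol and each spanning several genes, completed the 10 genes with the most. These genes are long, from 382 to 1552 kb, and each has many kept regions, so their counts are not shares.

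Neighbours were weakened together more often than the background share. The next kept region along the chromosome was weakened for 17.0% of weakened regions (1270 of 7456, 16.2 to 17.9), against 11.2% of all kept regions, and outside promoters for 20.2% against 14.1%. At 10 to 50 kb the share was 18.3% against 13.2%, and at 50 kb or more 20.2% (18.5 to 22.1) against 17.8%. Most weakened regions, 5182, had no weakened neighbour on either side. The longest run was 8 kept regions in a row over 201 kb across SRGAP3 and towards RAD18 (chr3:8980439-9181146). In SRGAP3 the region with the deepest loss (chr3:9118792-9119951) had folds of 5.99 with DMSO, 14.2 with ATRA, 2.63 with Corin and 2.40 with the combination.

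Gene groups were counted next, over 12 lists that fit the cell type and the compounds. Of all kept regions within 10 kb of a coding gene, 10.2% were weakened. Around 14 genes of the CoREST complex and its recruiters 11 of 82 were (13.4%, 7.66 to 22.4), around 26 interferon-stimulated genes 8 of 65 (12.3%, 6.37 to 22.5), and around 22 neuronal targets of REST 6 of 71 (8.45%, 3.93 to 17.2). These intervals include the background. All 14 CoREST genes had a kept region, and 6 of them had a weakened one, the others none. Among these 6, HDAC2 had 3 of its 4 kept regions weakened and KDM1A 1 of 2. PHF21A, a subunit that reads unmodified histone H3, had 3 of 6. INSM1 had 1 of 2 and GSE1 2 of 35.

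The HDAC2 region with the deepest loss (chr6:113994879-113995243) lies in the gene body 16065 bp from the coding start. It had folds of 10.4 with DMSO, 9.09 with ATRA, 5.94 with Corin and 3.95 with the combination. In the interferon group, IRF7, a factor of the interferon response, had its 1 kept region weakened, at its start (chr11:614496-616498), with folds of 12.6, 22, 8.31 and 10.9. Its pileups were high throughout, at 1449, 1862, 1204 and 2042 reads. These pileups were not scaled for read depth. As solved, the pileup was lower with Corin than with DMSO and higher with the combination than with ATRA, where the fold was lower. The background there was 83.9 with ATRA and 186 with the combination. A rise in accessibility cannot be read from the unscaled pileup. The RNA sensor RIGI had 2 of 3 kept regions weakened, and MX1, an antiviral GTPase, also 2 of 3.

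Myeloid and retinoid genes had lower shares, with intervals that still include 10.2%. Around 28 myeloid differentiation genes 8 of 116 kept regions were weakened (6.90%, 3.54 to 13.0), including 2 of 6 near ITGAX, a monocyte integrin. Around 27 myeloid and stem cell factors 17 of 216 were (7.87%, 4.97 to 12.2), 8 of them near RUNX1 and 2 near ERG, with 1 of 5 near SPI1 itself. Around 20 retinoic acid response genes 4 of 84 were (4.76%, 1.87 to 11.6), 2 of them near RARB. Ribosomal protein genes had 4 of 55 (7.27%, 2.86 to 17.3).

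Growth and signalling genes were lower still. Cell cycle genes had 5 of 131 (3.82%, 1.64 to 8.62), of which 3 lay near RB1. Adhesion and cytoskeleton genes had 4 of 150 (2.67%, 1.04 to 6.66), NF-kB and inflammation genes 2 of 83 (2.41%, 0.663 to 8.37), genes of MAPK feedback 2 of 69 (2.90%, 0.799 to 9.97) and genes of AP-1 proteins 1 of 55 (1.82%, 0.322 to 9.61). The intervals of these 5 groups lay below 10.2%. Outside promoters the background near coding genes was 13.6%. There adhesion genes had 3.70% (1.27 to 10.3) and NF-kB genes 2.38% (0.422 to 12.3), both below it. The intervals of cell cycle genes (7.35%, 3.18 to 16.1), MAPK genes (2.86%, 0.506 to 14.5) and AP-1 genes (5.26%, 0.935 to 24.6) included it, so for these groups a lower share was not shown outside promoters. The single region near an AP-1 gene lies 9884 bp from JUN (chr1:58773161-58774163), with folds of 15.9 with DMSO, 18.2 with ATRA, 11.2 with Corin and 8.63 with the combination. Its pileups, not scaled for read depth, were 396, 208, 407 and 319 reads. The lower fold thus did not come with a lower unscaled pileup.

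As a check of the cell type, 8 of 10 myeloid markers had a peak within 1 kb of a start in the DMSO list, among them SPI1, CD33, CSF1R and ITGAM, and MPO and CD14 had none. Peaks were also found at 3 of 4 B cell markers, 1 of 4 T cell, 1 of 4 erythroid and 2 of 3 epithelial ones, and the T cell genes CD3D, CD3E and CD3G had none. What part, if any, other cells or the different backgrounds of the lists have in the weakened regions was not tested.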

How the data were processed

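ATAC-seq of 8 samples in 4 groups was read from 1 deposited peak list per group, in which the authors combined the replicates. Reads were trimmed, aligned to hg38 and turned into peaks with cutadapt, Bowtie2, SAMtools, Picard and MACS2, per the submitters' processing notes, whose settings are not given in the sources used here. All 24 chromosome ends fitted hg38. The deposited fold is a ratio, the peak's pileup divided by local background, and the deposited p and q are −log10 values. The summit is an offset in bp from the peak start. The authors' scores served to rank regions within a list. Folds, and the pileup and background solved from fold and p, were also compared between lists as descriptions. In 0 columns values were left without a group.

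Overlapping peaks (at least 1 bp) were merged. The rule, the motifs and the gene lists were chosen with earlier results of these data known. Pileup and background were solved from fold, with 1 added to both, and the Poisson p; pileups were whole numbers within 0.05 for 99.97% to 99.98% of peaks. Positions and 21 motifs used GENCODE release 44 and hg38 sequence. Promoters were regions within 1 kb of any start. Named regions were the 15 deepest at and away from coding starts by the weaker difference, the 10 highest in DMSO, the 10 genes with most members, listed genes with at least 2 members or the deepest member of each list, and the 3 on each side of the limit. One item of the gene lists is not reported here. One list per group allows no test between groups. Merging, ranking, solving and searching were tested on simulated data, and merging was checked against bedtools 2.31.1. Python 3.11.15, pandas 2.3.3, numpy 2.4.6, scipy 1.17.1, pysam 0.24.0 and matplotlib 3.10.9 were used. Alternatives were other limits, scores, merging and filters, promoter and window definitions, and, chosen after seeing the data, ranking outside promoters only.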

Additional observations from a re-analysis of the deposited data

How the results depend on the processing

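No paired analysis was possible because each group had a single list that combines its replicates, and for the same reason no replicate could be left out. The number of weakened regions was 12101 with a limit of 5 points and 2783 with one of 20, and lay between 5769 and 8301 in the other 9 alternatives. Which regions qualify depended on the score. Ranking by −log10 p gave 6637 and held 64.2% of the 7459, ranking by pileup gave 5867 and held 50.6%, and the mean over the peaks of a region gave 8301 and held 59.7%. The 30 named promoter and distal regions all remained with −log10 p and with pileup, and 24 remained with the mean.

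The promoter share was 15% and 11.2% at limits of 5 and 20 points, 14.8% with −log10 p, 14.9% with pileup, 22.2% with promoters drawn to 2.5 kb, 4.68% with coding transcripts only, and 0 by construction when regions outside promoters alone were ranked. The median GC content was 48.0% with −log10 p and with pileup, 47.0% outside promoters only and 45.6% over the whole region. Over 13 alternatives, counted over weakened regions at any position, PU.1 letters were 4.27 to 9.93 percentage points more frequent than in all kept regions and AP-1 letters 6.22 to 10.1 points less (differences of −10.1 to −6.22). For 18 motifs the share in all kept regions lay outside the interval of the weakened ones, and 16 of them kept their sign. C/EBP turned from 1.61 points to −1.57 when regions outside promoters alone were ranked, and NFY from −1.31 to 1.96 in 400-bp windows. Depth is unknown, and regions in the lowest 10% of the DMSO list could not qualify.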
